A study of Mus musculus with 463 samples.

Results

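The genes described here are 31 markers of blood vessels, red blood cells and immune cells, followed through sorted cells of the mouse embryonic pancreas in order to measure how much RNA of cells other than epithelium each sort held. They were taken as a fixed list of symbols, 12 endothelial, 8 erythroid and 11 immune, and all 31 were found among the 40824 genes of both the bulk and the single-cell read-count tables. The bulk data comprised 16 RNA-seq libraries, 2 in each of 8 groups: ventral and dorsal Pdx1+ cells at E10.5, ventral and dorsal Ngn3-high cells and ventral and dorsal Ngn3-low cells at E14.5, and ventral and dorsal Ins1+ cells at E17.5. All came from mouse embryos that carried a fluorescent reporter, Pdx1-GFP at E10.5, Ngn3-GFP at E14.5 and Insulin-RFP at E17.5, with no treatment given, and each library was made from a pool of sorted cells. A reporter gate of this kind selects cells by fluorescence alone, so a cell of another type can enter it. The single-cell data comprised 447 cells in 12 sorts, made by Smart-seq2, a full-length method for single cells: ventral and dorsal Pdx1+ cells at E9.5, ventral and dorsal Pdx1+, Pdx1-high and Pdx1-low cells at E10.5, ventral Pdx1-low cells split by the hepatoblast surface antigen Liv2 into Liv2+ and Liv2-, Liv2+ cells of the E10.5 liver bud, and 4 E15.5 liver cells marked by Pdx1-Cre and a tdTomato reporter. The labels do not say what a library number or a numbered set of cells stands for, so p-values here measure only the spread between these samples, which may be technical.

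The 3 lists mark cells that surround or pass through the pancreatic buds. Endothelial cells of the dorsal aorta and the vitelline veins touch the foregut endoderm where the buds form and are known to support pancreatic outgrowth. They sense VEGF through the receptors encoded by Kdr and Flt1 and angiopoietins through Tek, and they hold together through adhesion proteins encoded by Cdh5, Pecam1 and Esam. The first red cells come from the yolk sac, circulate as nucleated cells and carry embryonic globins, which in the mouse are encoded by Hbb-y, Hbb-bh1 and Hba-x. Definitive red cells made later by the fetal liver use adult globins instead. Embryonic macrophages also start in the yolk sac and are marked by the growth factor receptor encoded by Csf1r, the fractalkine receptor encoded by Cx3cr1, the leukocyte phosphatase encoded by Ptprc and the complement genes C1qa, C1qb and C1qc.

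Promoter sequences are shown for 3 members on which the results turn. Hbb-y is the embryonic beta globin that was higher in both ventral than in both dorsal E10.5 libraries, and Flt1 and Kdr are the VEGF receptors that went together in E14.5 bulk libraries and apart in E10.5 single cells. RefSeq promoters of build GRCm38.p6 were matched by symbol for 23 of the 31 members. Each sequence below gives the 150 bases before the start site, 5′ to 3′ on the gene's own strand, which is the minus strand for all 3 (chr7:103853208-103853357, chr5:147726012-147726161 and chr5:75978456-75978605). Capitals mark CACCC and CCAAT in Hbb-y and AGGAAG in Flt1 and Kdr, searched on both strands. CACCC and CCAAT are letters known from globin promoters, and AGGAAG is a form bound by ETS factors, which act in endothelial cells.
Hbb-y: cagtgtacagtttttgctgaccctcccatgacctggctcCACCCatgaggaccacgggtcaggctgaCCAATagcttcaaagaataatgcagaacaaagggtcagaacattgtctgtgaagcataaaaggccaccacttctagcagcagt
Flt1: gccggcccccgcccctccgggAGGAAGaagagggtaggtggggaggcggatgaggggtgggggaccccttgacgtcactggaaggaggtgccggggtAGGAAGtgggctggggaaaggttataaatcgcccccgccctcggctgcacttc
Kdr: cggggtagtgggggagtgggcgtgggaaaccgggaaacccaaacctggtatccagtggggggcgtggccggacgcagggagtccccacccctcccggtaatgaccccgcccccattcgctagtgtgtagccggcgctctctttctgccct
The Hbb-y window held 1 CACCC and 1 CCAAT, and the Flt1 window held 2 AGGAAG. The Kdr window held no AGGAAG. Among members with a promoter, CACCC was found in 7 of 7 erythroid, 5 of 8 endothelial and 4 of 8 immune genes, against 37.4% of all 32851 promoters of this length. AGGAAG was found in 5 of 8 endothelial, 2 of 7 erythroid and 4 of 8 immune genes, against 19.7% of all promoters. CCAAT was found in 3 of 7 erythroid, 2 of 8 immune and 0 of 8 endothelial genes, against 24.5%. AGATAA, a form bound by GATA factors, was found in 2 of 7 erythroid, 1 of 8 immune and 0 of 8 endothelial genes, against 5.65%. A member was counted when any of its promoters held the letters, while the shares of all promoters count each promoter on its own. Egfl7 and Ptprc had more than 1 promoter, so the 2 kinds of share are not strictly alike. These matches describe letters in the windows and no binding was measured.

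Levels are CPM, the reads on a gene scaled to the TMM-adjusted total of its library, and bulk libraries held 8779418 to 24551520 reads on genes. Of the 31 members, 31 passed the filter on low counts in bulk. The epithelial marker list (Epcam, Cdh1, Krt8, Krt18, Krt19, Cldn6, Cldn4 and Grhl2) summed to 2169.5 ± 70.7 CPM in ventral libraries and 2452 ± 68.6 CPM in dorsal E10.5 libraries (SD, n = 2 each), so the sorts carried their labelled epithelium. The member lists differed between gates. Endothelial members summed to 129 and 94.8 CPM in ventral libraries and 26 and 15.6 CPM in dorsal Pdx1+ libraries at E10.5. At E14.5 they summed to 27.7 and 16.8 CPM in ventral libraries and 29.8 and 21.1 CPM in dorsal Ngn3-high libraries, against 1205 and 366 CPM in ventral libraries and 1089.7 and 543 CPM in dorsal Ngn3-low libraries. At E17.5 they summed to 165 and 58.9 CPM in ventral libraries and 139 and 61.3 CPM in dorsal Ins1+ libraries. The Ngn3-low gate thus held the highest endothelial sum in each of its 4 libraries.

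Erythroid members stood highest at E10.5, with 607 and 421 CPM in ventral libraries and 218 and 261 CPM in dorsal Pdx1+ libraries. They summed to 4.46 and 7.41 CPM in ventral libraries and 6.42 and 6.6 CPM in dorsal Ngn3-high libraries, against 13.9 and 17.2 CPM in ventral libraries and 5.95 and 13.8 CPM in dorsal Ngn3-low libraries. In Ins1+ libraries the sums were 34.7 and 41.4 CPM on the ventral and 40.7 and 35.7 CPM on the dorsal side. Every E10.5 library therefore lay above every later one. Immune members summed to 304 and 94.1 CPM in ventral libraries and 41.1 and 24.2 CPM in dorsal Pdx1+ libraries. In Ngn3-high libraries they summed to 19.4 and 11.4 CPM on the ventral and 18.5 and 15.6 CPM on the dorsal side, against 225 and 166 CPM and 213 and 207 CPM in Ngn3-low libraries of the same sides. Ins1+ libraries had immune sums of 349 and 140.3 CPM on the ventral and 275 and 109.9 CPM on the dorsal side. The 4 Ngn3-high libraries had the lowest immune sums of all 16. In bulk samples, fewer cells of a type and less RNA per cell cannot be told apart.

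**Figure D1:**
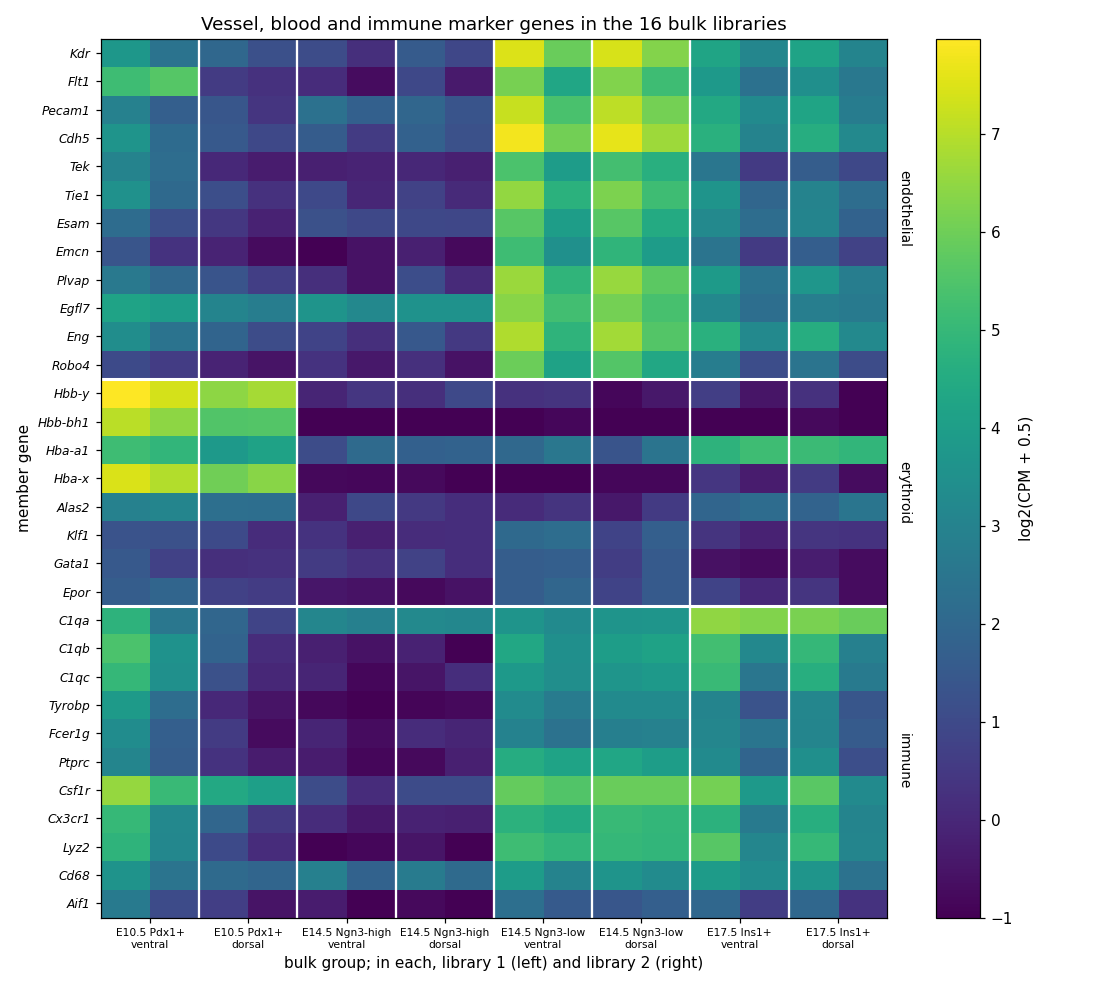
Heat map of the 31 members (rows, grouped as endothelial, erythroid and immune) in the 16 bulk libraries (columns, library 1 left of library 2 in each group), with colour giving log2(CPM + 0.5). Endothelial rows are brightest in the 4 Ngn3-low libraries, embryonic globins in the 4 E10.5 libraries, and immune rows are dark in the 4 Ngn3-high libraries apart from C1qa and Cd68.

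At E10.5, the members of all 3 lists stood higher in ventral than in dorsal Pdx1+ libraries. All 31 members had a log2 fold change above 0, ventral over dorsal, from 0.83 to 5.66, and in all 31 both ventral libraries lay above both dorsal ones, as did 27.1% of all genes tested. Of these, 10 members rose past the threshold (adjusted p under 0.05 over all 17690 genes tested) and 0 fell. Of all genes tested, 10.2% rose past it, and 24.7% were called in either direction. The median log2 fold change was 3.30 over the immune, 2.01 over the endothelial and 1.09 over the erythroid members, beside -0.03 over all genes tested. The 10 called members were the VEGF receptor gene Flt1, the angiopoietin receptor gene Tek, the globins Hbb-y, Hbb-bh1, Hba-a1 and Hba-x, and the immune genes C1qa, C1qc, Tyrobp and Fcer1g.

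Among endothelial receptors, Flt1 had 36.3 and 48.6 CPM in ventral libraries, against 0.964 and 0.703 CPM in dorsal ones. Its log2 fold change of 5.66 with SE 1.12 and adjusted p = 0.0061 was the largest of the 31. Tek had 7.59 and 4.16 CPM in ventral libraries, against 0.536 and 0.301 CPM in dorsal ones, a log2 fold change of 3.78 with SE 1.06 and adjusted p = 0.028. Both genes lay at about 1 CPM or less in dorsal libraries. Kdr, the main signalling receptor for VEGF, had 12.8 and 4.9 CPM in ventral libraries, against 3.54 and 1.81 CPM in dorsal ones, and its log2 fold change of 1.70 with SE 1.11 and adjusted p = 0.338 did not pass the test. Tie1, an orphan receptor that partners with the Tek product, had 11.2 and 3.66 CPM in ventral libraries, against 1.71 and 0.703 CPM in dorsal ones, with an adjusted p of 0.192. Eng, a co-receptor for TGF-beta family ligands, had 10.2 and 4.82 CPM in ventral libraries, against 3.21 and 1.61 CPM in dorsal ones, and Robo4, an endothelial Roundabout receptor, had 1.54 and 0.997 CPM in ventral libraries, against 0.429 and 0.201 CPM in dorsal ones. Ventral library 1 lay well above ventral library 2 in Kdr, Tie1 and Eng, while Flt1 was higher in ventral library 2.

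The junction genes had the same order without passing the test. Cdh5, which encodes VE-cadherin, had 12.1 and 3.91 CPM in ventral libraries, against 2.36 and 1.41 CPM in dorsal ones (adjusted p = 0.36). Pecam1 had 7.18 and 2.83 CPM in ventral libraries, against 2.14 and 0.803 CPM in dorsal ones (adjusted p = 0.445), and Esam had 4 and 1.75 CPM in ventral libraries, against 0.857 and 0.402 CPM in dorsal ones (adjusted p = 0.263). Each ventral library was above each dorsal one, but ventral library 2 lay closer to the dorsal values than ventral library 1 did. Plvap, which forms the diaphragms of fenestrae, had 5.75 and 3.57 CPM in ventral libraries, against 2.04 and 1.1 CPM in dorsal ones, and Emcn, a sialomucin of venous and capillary endothelium, had 2.05 and 0.748 CPM in ventral libraries, against 0.429 and 0.1 CPM in dorsal ones. Egfl7, a secreted angiogenic factor, had 18.1 and 14.9 CPM in ventral libraries, against 7.82 and 6.43 CPM in dorsal ones and the smallest standard error of the list (log2 fold change 1.21 with SE 0.47 and adjusted p = 0.095).

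The embryonic globins were the most abundant members per transcript length at E10.5. Hbb-y stood at 316 ± 90.4 RPKM in ventral libraries and 146 ± 23 RPKM in dorsal libraries (SD, n = 2 each). In CPM, Hbb-y had 251 and 166 CPM in ventral libraries, against 85.9 and 107 CPM in dorsal ones, a log2 fold change of 1.11 with SE 0.28 and adjusted p = 0.0163. Its chromosome 7 neighbour Hbb-bh1 had 132 and 87.3 CPM in ventral libraries, against 46.2 and 46.8 CPM in dorsal ones, a log2 fold change of 1.23 with SE 0.20 and adjusted p = 0.000949. On chromosome 11, the embryonic alpha globin Hba-x had 174 and 123 CPM in ventral libraries, against 64.3 and 82.7 CPM in dorsal ones (1.01 log2, adjusted p = 0.00677), and the adult-type Hba-a1 had 35.8 and 29.8 CPM in ventral libraries, against 13.7 and 17.6 CPM in dorsal ones (1.07 log2, adjusted p = 0.0374). All 4 globins thus differed by close to 1 on the log2 scale, and no ventral library overlapped a dorsal one. Reads of Hba-a1 are uncertain, because Hba-a2 is a near-identical copy and the treatment of multi-mapping reads is not given in the sources used here.

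Other red-cell genes were scarcer and none passed the test. Alas2, the erythroid enzyme that starts haem synthesis, had 7.29 and 7.98 CPM in ventral libraries, against 4.39 and 4.22 CPM in dorsal ones (adjusted p = 0.195). Epor, the erythropoietin receptor gene, had 2.67 and 3.32 CPM in ventral libraries, against 1.18 and 1 CPM in dorsal ones (adjusted p = 0.0577). The erythroid transcription factor genes Klf1 and Gata1 were low in all 4 libraries. Klf1 had 1.95 and 1.83 CPM in ventral libraries, against 1.5 and 0.603 CPM in dorsal ones, and Gata1 had 2.36 and 1.16 CPM in ventral libraries, against 0.643 and 0.703 CPM in dorsal ones. Alas2 shares 311 exon bases with Apex2 on the opposite strand, and whether reads were counted by strand is not given in the sources used here.

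Immune members showed the widest ventral to dorsal differences as a list. The signalling adaptors Tyrobp and Fcer1g, which pass on signals of activating receptors, both rose. Tyrobp had 14.3 and 4.07 CPM in ventral libraries, against 0.536 and 0.201 CPM in dorsal ones, a log2 fold change of 4.60 with SE 1.08 and adjusted p = 0.0106. Fcer1g had 9.75 and 2.83 CPM in ventral libraries, against 0.964 and 0.1 CPM in dorsal ones, a log2 fold change of 3.55 with SE 0.90 and adjusted p = 0.0132. The 3 C1q genes lie side by side on chromosome 4 and encode the chains of one complement protein. C1qa had 27.2 and 5.32 CPM in ventral libraries, against 3.43 and 1.31 CPM in dorsal ones (2.76 log2, adjusted p = 0.0274), and C1qc had 31.1 and 11 CPM in ventral libraries, against 1.82 and 0.502 CPM in dorsal ones (4.18 log2, adjusted p = 0.0376). C1qb had 42.8 and 11.4 CPM in ventral libraries, against 3.11 and 0.603 CPM in dorsal ones and an adjusted p of 0.0512. In each of these 5 genes ventral library 1 lay well above ventral library 2, and both dorsal libraries lay below.

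Receptors and lysosomal genes of macrophages had the same order. Csf1r had 93 and 33.3 CPM in ventral libraries, against 20.8 and 16.2 CPM in dorsal ones (adjusted p = 0.209), and Cx3cr1 had 31.9 and 8.56 CPM in ventral libraries, against 3.43 and 0.904 CPM in dorsal ones (adjusted p = 0.0568). Ptprc, which encodes the pan-leukocyte phosphatase CD45, had 7.9 and 2.66 CPM in ventral libraries, against 0.75 and 0.301 CPM in dorsal ones (adjusted p = 0.0702). In all 3 genes both ventral libraries lay above both dorsal ones, without passing the test. Lyz2, the lysozyme of myeloid cells, had 28 and 8.39 CPM in ventral libraries, against 1.5 and 0.603 CPM in dorsal ones (adjusted p = 0.0559). Cd68, a lysosomal membrane protein gene, had 11.7 and 4.99 CPM in ventral libraries, against 3.75 and 3.31 CPM in dorsal ones, and Aif1, the gene of the macrophage protein Iba1, had 5.95 and 1.58 CPM in ventral libraries, against 1.07 and 0.201 CPM in dorsal ones. Csf1r shares 873 exon bases with Hmgxb3 on the opposite strand, which stood at 59.9 to 76.1 CPM in every bulk library. Without counting by strand, reads on these shared bases cannot be assigned to either gene.

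Genes of the same and other cell types that are not members gave a mixed picture. Of other myeloid markers, 9 of 18 rose and 0 fell (median log2 fold change 3.30), among them Spi1, the myeloid transcription factor gene (9.72 ± 7.87 CPM in ventral libraries and 1 ± 0.852 CPM in dorsal ones), Rac2 (9.87 ± 7.37 and 0.84 ± 0.478 CPM), Fcgr3 and Mpo. Of megakaryocyte markers, 6 of 8 rose and 0 fell, among them the platelet integrin genes Itgb3 (18.6 ± 9.44 CPM in ventral libraries and 4.99 ± 2.94 CPM in dorsal ones) and Itga2b, and the platelet factor gene Pf4. Of other erythroid markers, Ermap, Nfe2 and Rhag rose and Epb42 fell, out of 14. Of other endothelial markers, 0 of 21 rose and the Notch ligand gene Dll4 fell (5.33 ± 0.572 CPM in ventral libraries and 17.3 ± 2.29 CPM in dorsal ones, SD, n = 2 each). Of 5 mast cell and lymphoid markers none passed in this edgeR test.

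Heart muscle RNA moved with these members. All 7 cardiac muscle markers rose, with a median log2 fold change of 6.28 and none at 0 in ventral libraries, and their sum was 2095 and 1211 CPM in ventral libraries and 25.9 and 7.03 CPM in dorsal libraries. Myh6, the atrial myosin gene, averaged 619 ± 202 CPM in ventral libraries and 3.1 ± 3.95 CPM in dorsal ones. Of 11 mesenchyme markers, 6 rose and 0 fell, among them the collagen gene Col1a1 (273 ± 93.2 CPM in ventral libraries and 8.57 ± 0.613 CPM in dorsal ones). Of 8 epithelial markers, Krt18 and Krt19 rose and Cdh1 and Cldn4 fell. Of 5 neural crest markers 4 fell, among them Erbb3 and Foxd3. Of 10 ligands of member receptors, Csf1, the ligand of the Csf1r product, rose (18 ± 2.33 CPM in ventral libraries and 2.34 ± 0.18 CPM in dorsal ones) along with Angpt1 and 2 others, while Cx3cl1, the ligand of the Cx3cr1 product, fell (1.67 ± 0.248 and 29 ± 1.53 CPM), as did Angpt2. The part of these other cells in the member differences was not tested.

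**Figure D2:**
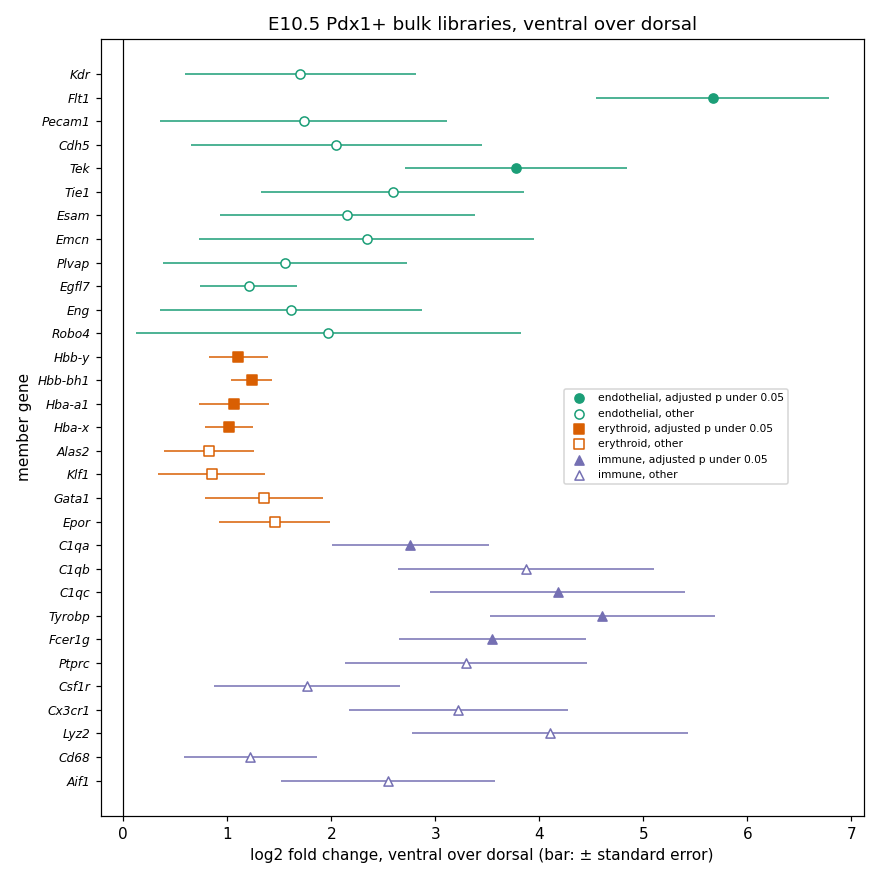
Log2 fold changes of the 31 members, ventral over dorsal, in E10.5 Pdx1+ bulk libraries (2 against 2), with bars for the standard error and filled points for members with an adjusted p under 0.05. Every point lies to the right of 0, and the 10 called members are Flt1, Tek, 4 globins and 4 immune genes.

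The E10.5 calls rested on few libraries. Hbb-bh1 was called in all 4 fits that left out 1 library (highest adjusted p = 0.0193), and the other 9 members were lost in at least 1. Without dorsal library 2, 8 calls were lost and 2 members were called (adjusted p 0.0598 for Flt1 to 0.208 for C1qc). Without dorsal library 1, 7 calls were lost and 3 members were called, and without ventral library 1, 6 were lost and 4 were called. Without ventral library 2, only the call of Hba-a1 was lost, and 13 members were called. DESeq2 called 17 members but lost Hbb-y (adjusted p = 0.290), and 18 had an unadjusted p under 0.05 in edgeR. In an edgeR fit of only the libraries compared, C1qa and Fcer1g were lost (adjusted p = 0.241 and 0.0524). Of the 10 calls, 7 held in every alternative fit that kept all libraries of the comparison. With the library number as a block, 27 members were called, all but Alas2, Klf1, Gata1 and Csf1r, with adjusted p = 8.5e-06 for Kdr and 0.000798 for Cdh5, and what a number stands for is not given in the labels.

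The same Pdx1+ gate was also sorted as single cells at E10.5, which gave another measure of each member in the labelled population. Here CPM uses plain totals of reads on genes for both kinds of library, and reads of all cells of a side were pooled (59 ventral and 27 dorsal cells), with Poisson intervals that cover counting error only. Blood and immune RNA was far scarcer in the cells than in bulk. Erythroid members summed to 659 and 459 CPM in ventral bulk libraries and to 7.81 CPM in ventral cells, and to 232 and 275 CPM in dorsal bulk and 4.37 CPM in dorsal cells. Immune members summed to 329.6 and 102 CPM in ventral bulk and 3.51 CPM in ventral cells, and to 43.7 and 25.5 CPM in dorsal bulk and 6.94 CPM in dorsal cells. Endothelial members were of like size in both, with 139.8 and 103 CPM in ventral bulk and 84 CPM in ventral cells, and 27.7 and 16.4 CPM in dorsal bulk and 19.1 CPM in dorsal cells. Bulk and single-cell libraries differ in protocol and embryos, so these levels are set side by side and no test was made between them.

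The endothelial sum hid a division within the list. Flt1 had 39.4 and 53 CPM in ventral bulk libraries and 41 CPM (95% interval 39.2 to 42.9) in ventral cells, within the bulk range. Egfl7 had 19.6 and 16.2 CPM in ventral bulk and 30.3 CPM (95% interval 28.7 to 31.9) in ventral cells, and 8.31 and 6.76 CPM in dorsal bulk and 16.8 CPM (95% interval 15.1 to 18.6) in dorsal cells. Esam had 4.35 and 1.9 CPM in ventral bulk and 5.92 CPM (95% interval 5.24 to 6.66) in ventral cells. These 3 genes stood about as high or higher in the cells. Kdr had 13.9 and 5.34 CPM in ventral bulk and only 0.129 CPM (95% interval 0.0474 to 0.281) in ventral cells. Cdh5 had 13.1 and 4.25 CPM in ventral bulk and 0.0431 CPM (95% interval 0.00521 to 0.156) in ventral cells. Tek had 8.25 and 4.53 CPM in ventral bulk and no read in ventral cells, which allows up to 0.0646 CPM for reads of these 59 cells. A cell type met in 0 of 59 cells can still make up 5.08% of the gate, taking 3 cells as the limit for a count of 0. Kdr, Cdh5 and Tek were therefore close to 0 in the cells in which Flt1, Egfl7 and Esam were measured. Other members did not all follow either pattern. Plvap had 6.24 and 3.89 CPM in ventral bulk and 3.38 CPM (95% interval 2.87 to 3.95) in ventral cells. In ventral cells Eng had 1.31 CPM, Pecam1 1.21 CPM, Tie1 0.388 CPM and Emcn 0.301 CPM, each below both ventral bulk libraries, and Robo4 had no read.

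Red-cell and immune members all stood below both bulk libraries in ventral cells. Hbb-y had 272 and 181 CPM in ventral bulk and 2.02 CPM (95% interval 1.64 to 2.48) in ventral cells. Hbb-bh1 had 143 and 95 CPM in ventral bulk and no read in ventral cells, with the same limit of 0.0646 CPM for reads of these cells. Hba-x had 189 and 134 CPM in ventral bulk and 0.667 CPM (95% interval 0.453 to 0.947) in ventral cells. Alas2 came closer, with 4.67 and 4.44 CPM in dorsal bulk and 3.11 CPM (95% interval 2.42 to 3.93) in dorsal cells. Among immune members C1qb had 46.5 and 12.4 CPM in ventral bulk and no read in ventral cells. Csf1r had 101 and 36.3 CPM in ventral bulk and 1.03 CPM (95% interval 0.762 to 1.37) in ventral cells. On the dorsal side, Cd68 had 3.99 and 3.49 CPM in bulk and 4.32 CPM (95% interval 3.5 to 5.28) in cells. It made up most of the immune sum of dorsal cells. Intervals of dorsal cells also reached the bulk range in Epor (1.04 CPM in cells, 1.25 and 1.06 CPM in bulk). C1qa did so too, with 1.4 CPM in cells against 3.64 and 1.37 CPM in bulk. So did Lyz2, Tyrobp and Fcer1g, each with 11 reads or fewer in dorsal cells.

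**Figure D3:**
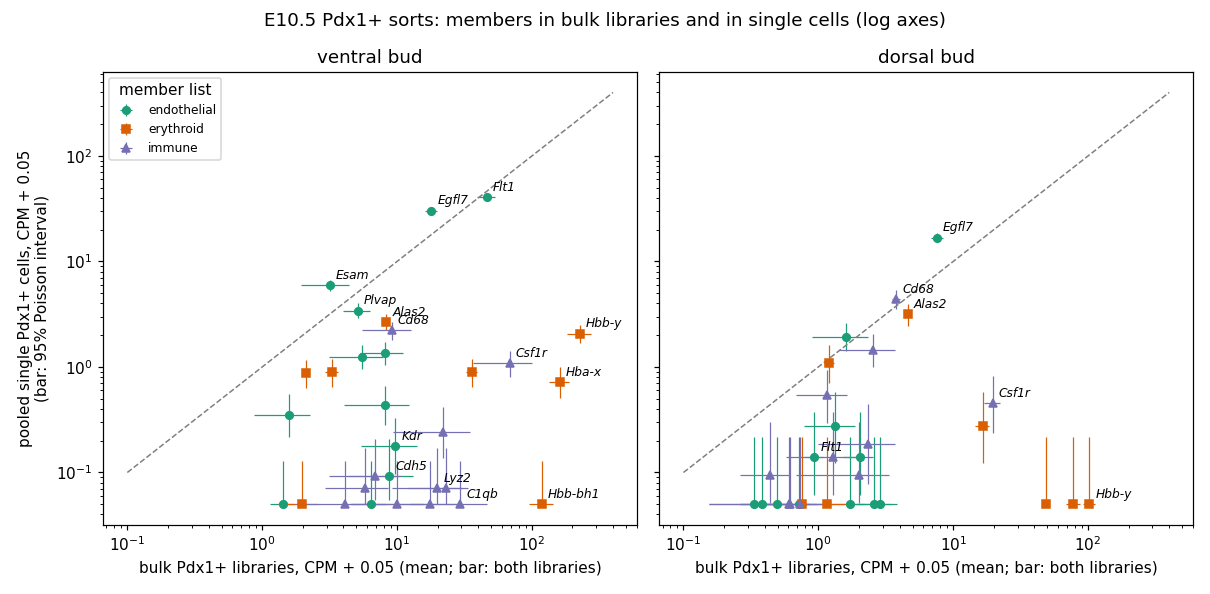
Each member's level in bulk Pdx1+ libraries at E10.5 (x axis, mean of both libraries with a bar to each) against its level in pooled single Pdx1+ cells (y axis, with 95% Poisson intervals), ventral at left and dorsal at right, both axes logarithmic in CPM + 0.05. Flt1, Egfl7, Esam and Plvap lie near the dashed line of equal level in the ventral panel, and globins and most immune members lie far below it.

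Single cells were then examined each on its own for a set of markers from 1 list. A cell was counted when 3 or more members of a list reached 10 CPM, which is 10.64 reads at the median cell of 1064163 reads on genes. Endothelial members met this in 27 of 447 cells (6.04%, exact 95% interval 4.02% to 8.67%), erythroid members in 4 cells (0.895%, 0.244% to 2.28%) and immune members in 0 cells (exact 95% upper bound 0.822%, and 0.671% by the limit of 3 counts that a count of 0 allows). Cells are not replicates, so these intervals cover counting error only. Of the 27 endothelial cells counted, 23 had Flt1. Egfl7 was common throughout, at 10 CPM or more in 86.8% of cells with Flt1 at that level and 69.0% of the others. Egfl7 therefore set few cells apart in this rule. By sort, the endothelial count was 7 of 39 in ventral Pdx1-low cells and 1 of 40 in dorsal Pdx1-low cells, 4 of 59 in ventral and 0 of 27 in dorsal Pdx1+ cells, and 0 of 39 in ventral and 0 of 28 in dorsal Pdx1-high cells. At E9.5 it was 3 of 44 in ventral and 1 of 31 in dorsal Pdx1+ cells. Liv2+ ventral Pdx1-low cells had 5 of 54 and Liv2- cells 6 of 59, and the liver bud had 0 of 23.

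Of the 27 cells, 18 carried Flt1, Esam and Egfl7 and 24 had the epithelial gene Epcam at 10 CPM or more, so most did not show a full endothelial set. The exception with most members was cell 28 of E9.5 ventral set 1, which had 11 of the 12 endothelial members at 10 CPM, all but Tek, beside 368 CPM of Epcam. It was also the deepest cell, with 1738015 reads on genes. Cell 27 of the same set had Emcn, Plvap, Egfl7 and Eng beside 429 CPM of Epcam. In ventral Pdx1-low set 6, cell 8 had Kdr, Tek, Plvap and Egfl7 with no Epcam read, and cell 3 had Kdr, Tek and Egfl7 with 6.44 CPM of Epcam. Cell 2 of ventral Pdx1+ set 3 had Plvap, Egfl7 and Eng with no Epcam read. In these last 3 cells endothelial genes went with Epcam under 10 CPM, which was found in 2 of 39 ventral Pdx1-low and 1 of 59 ventral Pdx1+ cells in all.

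Red-cell RNA was found in single cells here and there. Cell 14 of ventral Pdx1-low Liv2+ set 1 had Hbb-y, Hbb-bh1, Hba-a1, Hba-x and Alas2 at 10 CPM or more, beside 385 CPM of Epcam. Cell 4 of ventral Pdx1+ set 3 had 4 erythroid members beside 510.3 CPM of Epcam, and cell 7 of E9.5 dorsal set 1 had Hbb-y, Hba-x and Klf1 beside 948 CPM of Epcam. All 3 thus held epithelial and red-cell RNA together. The fourth was cell 1 of the E15.5 liver sort, which had 501 CPM of Hba-a1, 113 CPM of Klf1, 44.1 CPM of Epor, 26.5 CPM of Gata1 and 15.9 CPM of Alas2 with no read of Epcam. C1qb, C1qc, Tyrobp, Ptprc and Cx3cr1 reached 10 CPM in none of the 447 cells. Other immune members did reach it, among them Csf1r in 19 cells. Cd68 did so in 6 of 121 cells with Flt1 at 10 CPM or more and 30 of the 326 others, and C1qa in 0 and 6. Fcer1g, Lyz2 and Aif1 did so in few cells.

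**Figure D4:**
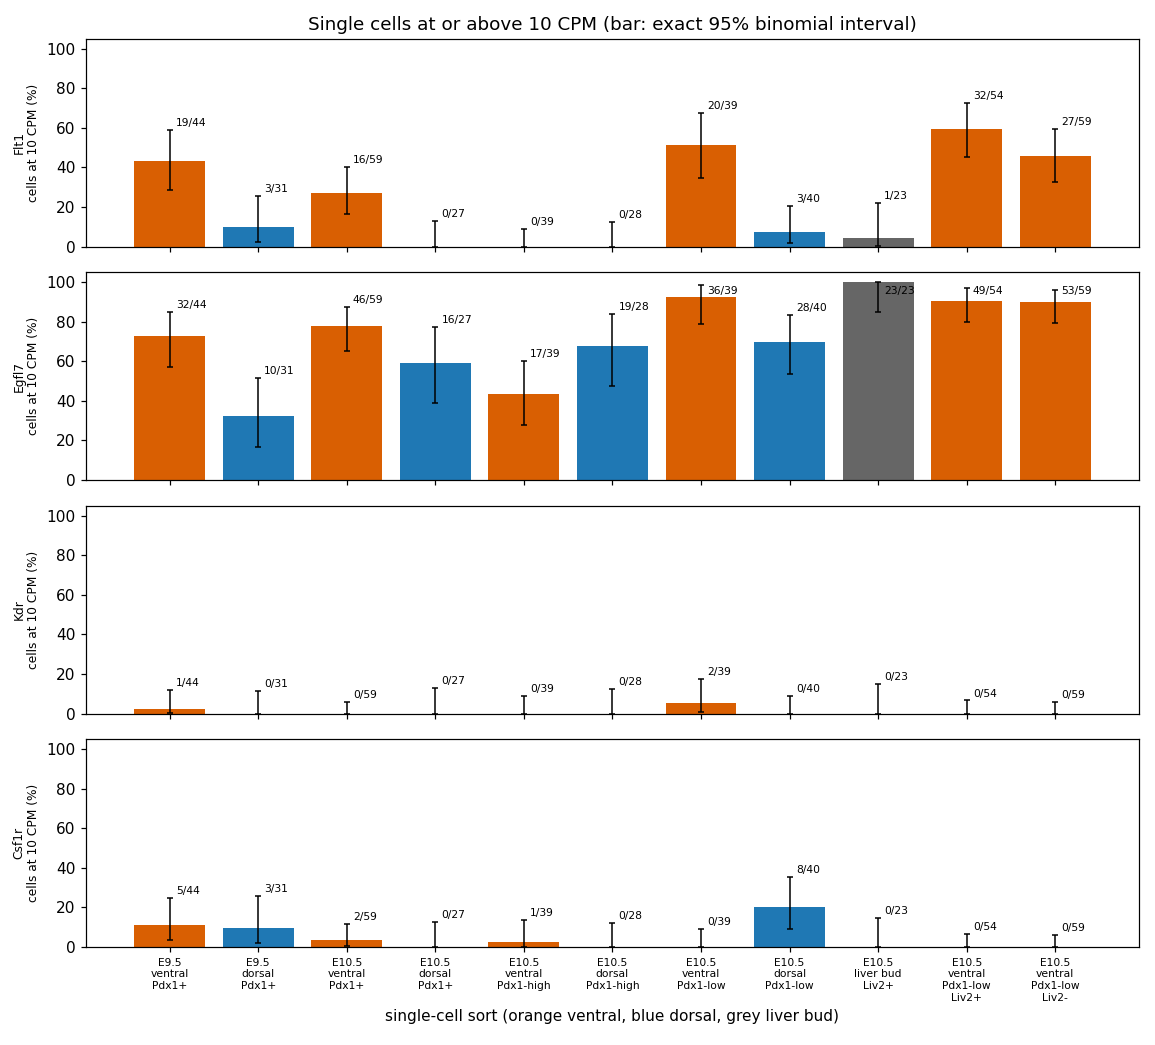
Share of cells (percent, y axis) with Flt1, Egfl7, Kdr or Csf1r, 1 panel each, at 10 CPM or more in 11 single-cell sorts (x axis), with exact 95% binomial intervals that cover counting error only. Flt1 reaches 59.3% in ventral Pdx1-low Liv2+ cells and 51.3% in ventral Pdx1-low cells and is at 0 in Pdx1-high cells of both sides, while Kdr stays near 0 throughout.

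Flt1 differed widely between the single-cell sorts. It reached 10 CPM in 121 of 447 cells (27.1%, exact 95% interval 23.0% to 31.4%), with a median of 89.4 CPM in those cells. It did so in 20 of 39 ventral and 3 of 40 dorsal Pdx1-low cells, in 16 of 59 ventral and 0 of 27 dorsal Pdx1+ cells, and in 0 of 39 ventral and 0 of 28 dorsal Pdx1-high cells. Pdx1-high cells of both sides thus had none, and dorsal sorts had few. Among ventral Pdx1-low cells sorted by Liv2 it did so in 32 of 54 Liv2+ and 27 of 59 Liv2- cells, against 1 of 23 cells of the liver bud. At E9.5 the counts were 19 of 44 ventral and 3 of 31 dorsal Pdx1+ cells. The median depth differed between sorts, from 580295 reads in ventral Pdx1+ to 1243844 in liver bud cells, leaving aside the E15.5 sort. With every cell thinned to 200000 reads, the counts were 20 of 39 ventral and 3 of 40 dorsal Pdx1-low cells, 18 of 59 ventral Pdx1+ cells and 0 Pdx1-high cells.

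The 121 Flt1 cells carried epithelial RNA, and few of them or of the other cells had the endothelial genes Kdr, Cdh5 or Tie1. All 121 had Epcam, the lowest at 44.9 CPM, with a median of 731 CPM, beside 726 CPM in the other 326 cells. Kdr reached 10 CPM in 1 of the 121 and 2 of the other 326 cells, Cdh5 in 1 and 0, and Tie1 in 4 and 0. Esam reached it in 15.7% of Flt1 cells and 2.76% of the others, and Egfl7 in 86.8% of Flt1 cells and 69.0% of the others. The foregut and liver gene Afp was at 10 CPM or more in 97.5% of Flt1 cells and 75.2% of the others (medians 763 and 206 CPM), and Pdx1 in 24.0% and 58.3%. Nrp1, a co-receptor for VEGF, was at that level in 95.0% of Flt1 cells and 71.5% of the others, and Vegfa in 25.6% and 44.5%. These shares describe cells chosen by Flt1 and mix sorts, so no test was made.

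Over sets of cells, Flt1 differed between sides in the Pdx1-low sort. Sets of 3 or more cells were summed and taken as replicates, and 18 of the 31 members passed the filter on low counts there (9 endothelial, 6 erythroid and 3 immune). Flt1 stood at 68.4 ± 31.3 CPM in 5 ventral Pdx1-low sets (25.5 to 106 CPM) and 3.22 ± 5.65 CPM in 6 dorsal sets (0 to 13.8 CPM), as mean ± SD. No ventral set overlapped a dorsal one, and the log2 fold change was 4.35 with SE 1.09 and adjusted p = 0.00429. Egfl7 stood at 64.1 ± 15.3 CPM in ventral sets and 27.9 ± 7.81 CPM in dorsal Pdx1-low sets, a log2 fold change of 1.20 with SE 0.37 and adjusted p = 0.0178. Esam stood at 3.46 ± 2.72 CPM in ventral sets and 0.00701 ± 0.0172 CPM in dorsal sets (7.08 log2, adjusted p = 0.0098), with groups that overlapped. These 3 members rose and 1, Csf1r, fell, while of all 17433 genes tested 13.9% rose, 11.1% fell and 24.9% were called in all. The 4 calls held in all 11 fits that left out 1 set, but Esam was lost with sets of 5 or more cells (adjusted p = 0.0630) and Egfl7 with no filter on low counts (0.0535).

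Other lists gave few calls in the Pdx1-low sets apart from mesenchyme, epithelium and ligands of member receptors. Of all genes, 13.9% rose and 11.1% fell. Of 18 other endothelial markers tested, Cd34, a sialomucin of vessels and progenitors, and Fli1, an ETS factor gene, rose and Dll4 fell, with Cd34 listed at no read in dorsal sets and Dll4 at no read in ventral sets. Of 11 mesenchyme markers 7 rose, among them Col1a1 and Col3a1. Of 6 cardiac muscle markers 1 rose, the ventricular myosin gene Myh7, which averaged 13 CPM in ventral and 0.962 CPM in dorsal sets (log2 fold change 3.81 by edgeR, adjusted p = 0.0447). Of 9 ligands, Epo and Angpt1 rose and Cx3cl1 and Angpt2 fell. Of 8 epithelial markers 4 rose, among them Krt18 and Krt19, and of 2 megakaryocyte markers Itga2b fell. No other erythroid (8 tested), myeloid (6 tested), neural crest (3 tested) or mast cell and lymphoid (2 tested) marker passed.

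Ventral Pdx1-high cells held less Flt1 and Egfl7 RNA than ventral Pdx1-low cells. Flt1 stood at 0.037 ± 0.0827 CPM in 5 Pdx1-high sets and 68.4 ± 31.3 CPM in 5 Pdx1-low sets, a log2 fold change of -10.75 with SE 1.76 and adjusted p = 0.00111. Egfl7 stood at 14.8 ± 4.18 CPM in Pdx1-high and 64.1 ± 15.3 CPM in Pdx1-low sets, a log2 fold change of -2.11 with SE 0.41 and adjusted p = 0.00423. Both fell, in groups that did not overlap, and both were called in all 10 fits that left out 1 set. They were the only called members of 18 tested, where 0.964% of all genes were called and 0.35% fell. This comparison was added after the values were seen.

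The remaining comparisons of sets gave 0 called members. In Pdx1+ cells (0.402% of all genes called), Flt1 stood at 32.9 ± 15.497 CPM in 3 ventral sets and 0.0807 ± 0.0702 CPM in 3 dorsal sets, a log2 fold change of 8.38 with SE 2.00 and adjusted p = 0.0565. Its groups did not overlap, but the adjusted p missed the threshold. By edgeR, 10 members there had an unadjusted p under 0.05, and DESeq2 called 1. Between 2 Liv2+ and 2 Liv2- sets (0.0% called) Flt1 stood at 64.4 ± 30.7 and 71.4 ± 30.0 CPM. By edgeR 1 member, Hba-x, had an unadjusted p under 0.05, and DESeq2 called 0. Between 2 liver bud sets and 2 Liv2+ ventral sets (0.585% called) Flt1 stood at 1.26 ± 1.66 and 64.4 ± 30.7 CPM, a log2 fold change of -5.68 with SE 1.99 and adjusted p = 0.379, and Egfl7 at 84.1 ± 16 and 55.2 ± 3.74 CPM. By edgeR, Flt1 and Hbb-y had an unadjusted p under 0.05, 2 members in all, and DESeq2 called 0. At E9.5 (0.0% called, added after the values were seen) Flt1 stood at 45.1 ± 3.8 CPM in 2 ventral sets and 7.62 ± 10.6 CPM in 2 dorsal sets. By edgeR 3 members, Cdh5, Plvap and Egfl7, had an unadjusted p under 0.05, and DESeq2 called 0.

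Csf1r was read in Epcam-positive cells in which the other immune members were at or near 0. It reached 10 CPM in 19 of 447 cells, of which 8 were among 40 dorsal Pdx1-low cells and 5 among 44 E9.5 ventral cells. In ventral Pdx1-low cells it had no read, against 9.96 ± 14.6 CPM in dorsal Pdx1-low sets (0 to 38.7 CPM), and it fell in this comparison (adjusted p = 0.00376). Over pooled cells that is at least 137-fold lower, taking 3 reads (0.0722 CPM) as the floor for the ventral group. This floor covers counting error in the reads and not which cells were sorted. The sets of both sides nevertheless overlapped, since some dorsal sets also had none. None of the 19 cells had a read of C1qa, C1qb, C1qc, Tyrobp, Fcer1g, Ptprc, Lyz2 or Aif1. Cd68 had reads in 4 of them and reached 10 CPM in 1, and Cx3cr1 had reads in 1, at 0.762 CPM. All 19 had at least 412 CPM of Epcam (median 855). The glucagon gene Gcg reached 10 CPM in 9 of the 19, and Hmgxb3, the gene that overlaps Csf1r, had a median of 22.5 CPM in the 19 cells and 23.1 CPM in the others.

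At E14.5, endothelial and immune RNA was far lower in Ngn3-high than in Ngn3-low libraries on both sides. Ngn3-high cells are endocrine progenitors, in which the factor encoded by Neurog3 starts the endocrine program, and the Ngn3-low gate takes cells with a low reporter signal. On the ventral side 24 members fell and 0 rose, with 61.8% of all 17690 genes called in either direction and 32.4% lower. On the dorsal side 23 fell and 0 rose, with 61.3% of all genes called and 32.1% lower. All 12 endothelial members fell on both sides (median log2 fold change -6.32 ventral and -5.80 dorsal). Of 11 immune members 9 fell on both sides (medians -5.62 and -5.27), all but C1qa and Cd68. Among 8 erythroid members Klf1 and Epor fell on both sides and Gata1 on the ventral side (medians -1.19 and -0.19), beside a median of 0.00 ventral and -0.01 dorsal over all genes. The sides share no libraries, and the difference between their fold changes was tested as an interaction, which called 0 of 31 members (0.0283% of all genes called). By edgeR 0 members had an unadjusted p under 0.05 in that test, and DESeq2 called 0.

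The endothelial receptors went together here. Kdr had 1.64 and 0.662 CPM in ventral and 2.49 and 1.38 CPM in dorsal Ngn3-high libraries, against 181 and 59.7 CPM in ventral and 174 and 78.8 CPM in dorsal Ngn3-low libraries. Its log2 fold changes were -6.75 with SE 1.00 and adjusted p = 0.000348 on the ventral and -5.91 with SE 0.91 and adjusted p = 0.00044 on the dorsal side. Flt1 had 0.595 and 0.12 CPM in ventral and 1.43 and 0.275 CPM in dorsal Ngn3-high libraries, against 70.3 and 19.1 CPM in ventral and 76.5 and 35.9 CPM in dorsal Ngn3-low libraries, with log2 fold changes of -7.02 on the ventral and -5.75 on the dorsal side. In both receptors every Ngn3-low library lay over 10-fold above every Ngn3-high one, and Ngn3-low library 1 lay above library 2. Tek had 0.372 and 0.422 CPM in ventral and 0.49 and 0.367 CPM in dorsal Ngn3-high libraries, against 42.3 and 14.9 CPM in ventral and 38.7 and 24.7 CPM in dorsal Ngn3-low libraries (-6.13 on the ventral and -6.11 on the dorsal side). Tie1 had 1.49 and 0.482 CPM in ventral and 1.23 and 0.55 CPM in dorsal Ngn3-high libraries, against 91.3 and 25.9 CPM in ventral and 72.3 and 36.3 CPM in dorsal Ngn3-low libraries (-5.94 on the ventral and -5.76 on the dorsal side). All 4 Ngn3-high libraries lay under 2 CPM in Tek and Tie1. Eng had 1.26 and 0.662 CPM in ventral and 2.29 and 0.917 CPM in dorsal Ngn3-high libraries, against 119 and 28.3 CPM in ventral and 106 and 47.2 CPM in dorsal Ngn3-low libraries (-6.28 on the ventral and -5.41 on the dorsal side). Robo4 had 0.744 and 0.241 CPM in ventral and 0.695 and 0.183 CPM in dorsal Ngn3-high libraries, against 61.1 and 17.7 CPM in ventral and 47.6 and 20.5 CPM in dorsal Ngn3-low libraries (-6.36 on the ventral and -6.01 on the dorsal side). Flt1 thus followed Kdr and Tek in E14.5 bulk, which it did not do in E10.5 single cells. These observations differ in assay, stage, reporter and gate, which cannot be told apart.

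Junction and surface genes had the same gap. Cdh5 had 2.53 and 0.964 CPM in ventral and 2.94 and 1.83 CPM in dorsal Ngn3-high libraries, against 226 and 66.4 CPM in ventral and 197 and 101 CPM in dorsal Ngn3-low libraries. Its log2 fold changes were -6.44 with SE 1.07 and adjusted p = 0.0007 on the ventral and -5.87 with SE 1.00 and adjusted p = 0.000831 on the dorsal side. Pecam1 had 4.54 and 2.89 CPM in ventral and 3.35 and 2.02 CPM in dorsal Ngn3-high libraries, against 149 and 41.4 CPM in ventral and 136 and 68.6 CPM in dorsal Ngn3-low libraries (-4.69 on the ventral and -5.16 on the dorsal side). All Ngn3-low values stood above all Ngn3-high values in both genes. Esam had 1.86 and 1.45 CPM in ventral and 1.43 and 1.38 CPM in dorsal Ngn3-high libraries, against 49.1 and 15.470 CPM in ventral and 49.2 and 21.9 CPM in dorsal Ngn3-low libraries (-4.29 on the ventral and -4.65 on the dorsal side). Plvap had 0.669 and 0.181 CPM in ventral and 1.68 and 0.55 CPM in dorsal Ngn3-high libraries, against 97.1 and 28.8 CPM in ventral and 96.5 and 51.8 CPM in dorsal Ngn3-low libraries (-7.26 on the ventral and -5.84 on the dorsal side). Emcn had 0 and 0.181 CPM in ventral and 0.368 and 0.0917 CPM in dorsal Ngn3-high libraries, against 35.7 and 10.9 CPM in ventral and 28.7 and 14.9 CPM in dorsal Ngn3-low libraries (-7.74 on the ventral and -6.26 on the dorsal side). Egfl7 differed least, with 12 and 8.55 CPM in ventral and 11.4 and 11.6 CPM in dorsal Ngn3-high libraries, against 83.1 and 37.7 CPM in ventral and 67.2 and 40.9 CPM in dorsal Ngn3-low libraries. Its log2 fold changes of -2.56 with SE 0.41 and adjusted p = 0.000355 on the ventral and -2.24 with SE 0.41 and adjusted p = 0.000809 on the dorsal side were the smallest of the list, and it stayed at 8.55 CPM or more in all 4 Ngn3-high libraries. Egfl7 shares exon bases with Agpat2 on the opposite strand and with Gm20532 and Mir126a on its own strand.

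Immune members were close to 0 in Ngn3-high libraries, apart from C1qa and Cd68. Lyz2 had 0 and 0.0602 CPM in ventral and 0.204 and 0 CPM in dorsal Ngn3-high libraries, against 36.2 and 29.8 CPM in ventral and 30.9 and 29.7 CPM in dorsal Ngn3-low libraries, with log2 fold changes of -9.60 with SE 1.92 and adjusted p = 0.0021 on the ventral and -7.67 with SE 1.57 and adjusted p = 0.0025 on the dorsal side. Csf1r had 1.64 and 0.602 CPM in ventral and 1.55 and 1.56 CPM in dorsal Ngn3-high libraries, against 57 and 45.8 CPM in ventral and 59.6 and 59.7 CPM in dorsal Ngn3-low libraries (-5.57 on the ventral and -5.25 on the dorsal side). Cx3cr1 had 0.595 and 0.241 CPM in ventral and 0.409 and 0.367 CPM in dorsal Ngn3-high libraries, against 26.9 and 21.5 CPM in ventral and 32.6 and 30.1 CPM in dorsal Ngn3-low libraries (-5.88 on the ventral and -6.28 on the dorsal side). The macrophage receptors and lysozyme thus lay at under 2 CPM in each Ngn3-high library. Ptprc had 0.297 and 0.0602 CPM in ventral and 0.0817 and 0.367 CPM in dorsal Ngn3-high libraries, against 22.9 and 17.9 CPM in ventral and 19.4 and 15.3 CPM in dorsal Ngn3-low libraries (-6.85 on the ventral and -6.57 on the dorsal side). Tyrobp had 0.0744 and 0 CPM in ventral and 0.0409 and 0.0917 CPM in dorsal Ngn3-high libraries, against 9.58 and 6.22 CPM in ventral and 9.29 and 9.27 CPM in dorsal Ngn3-low libraries (-7.53 on the ventral and -7.13 on the dorsal side). Fcer1g had 0.446 and 0.12 CPM in ventral and 0.613 and 0.459 CPM in dorsal Ngn3-high libraries, against 7.32 and 4.74 CPM in ventral and 6.75 and 7.2 CPM in dorsal Ngn3-low libraries (-4.44 on the ventral and -3.62 on the dorsal side). The 3 leukocyte genes divided the gates in the same way. Aif1 had 0.297 and 0 CPM in ventral and 0.0817 and 0 CPM in dorsal Ngn3-high libraries, against 4.4 and 2.43 CPM in ventral and 2.17 and 2.82 CPM in dorsal Ngn3-low libraries (-4.57 on the ventral and -5.27 on the dorsal side).

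The C1q genes parted. C1qb had 0.372 and 0.181 CPM in ventral and 0.409 and 0 CPM in dorsal Ngn3-high libraries, against 20.2 and 10.7 CPM in ventral and 15.6 and 17.7 CPM in dorsal Ngn3-low libraries (-5.80 on the ventral and -5.87 on the dorsal side), and C1qc had 0.446 and 0.0602 CPM in ventral and 0.204 and 0.642 CPM in dorsal Ngn3-high libraries, against 13.7 and 10.3 CPM in ventral and 12.5 and 13.7 CPM in dorsal Ngn3-low libraries (-5.62 on the ventral and -5.19 on the dorsal side). C1qa, their chromosome 4 neighbour, had 8.18 and 6.99 CPM in ventral and 8.75 and 8.35 CPM in dorsal Ngn3-high libraries, against 12.1 and 9.25 CPM in ventral and 12.1 and 12.3 CPM in dorsal Ngn3-low libraries. Its log2 fold changes of -0.50 with SE 0.59 and adjusted p = 0.503 on the ventral and -0.51 with SE 0.58 and adjusted p = 0.479 on the dorsal side did not pass the test, so C1qa reads stayed where those of its partner genes were near 0. Cd68 had 7.07 and 3.07 CPM in ventral and 6.17 and 3.76 CPM in dorsal Ngn3-high libraries, against 14.9 and 7.59 CPM in ventral and 11.9 and 9.58 CPM in dorsal Ngn3-low libraries, and its log2 fold changes of -1.16 with SE 0.57 and adjusted p = 0.101 and -1.07 with SE 0.56 and adjusted p = 0.125 did not pass either. No gene that shares exon bases with C1qa or Cd68 was found in the annotation used.

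Red-cell members were scarce in both E14.5 gates. Klf1 had 0.744 and 0.361 CPM in ventral and 0.613 and 0.642 CPM in dorsal Ngn3-high libraries, against 3.69 and 4.09 CPM in ventral and 1.24 and 2.76 CPM in dorsal Ngn3-low libraries, with log2 fold changes of -2.83 with SE 0.49 and adjusted p = 0.000104 and -1.66 with SE 0.49 and adjusted p = 0.00787. Epor had 0.223 and 0.181 CPM in ventral and 0.0817 and 0.183 CPM in dorsal Ngn3-high libraries, against 2.65 and 3.38 CPM in ventral and 1.24 and 2.38 CPM in dorsal Ngn3-low libraries, with log2 fold changes of -3.86 with SE 0.63 and adjusted p = 5.71e-05 and -3.87 with SE 0.71 and adjusted p = 0.000169. Gata1 had 0.967 and 0.723 CPM in ventral and 1.19 and 0.642 CPM in dorsal Ngn3-high libraries, against 2.65 and 2.79 CPM in ventral and 1.05 and 2.44 CPM in dorsal Ngn3-low libraries, and fell on the ventral side (-1.69 log2, adjusted p = 0.00607). Globins did not follow the vessel genes. Hbb-y had 0.446 and 0.843 CPM in ventral and 0.654 and 1.47 CPM in dorsal Ngn3-high libraries, against 0.712 and 0.771 CPM in ventral and 0.0619 and 0.251 CPM in dorsal Ngn3-low libraries (adjusted p = 0.907 and 0.072). Hba-a1 had 1.64 and 3.79 CPM in ventral and 2.9 and 3.03 CPM in dorsal Ngn3-high libraries, against 3.56 and 5.39 CPM in ventral and 2.04 and 5.01 CPM in dorsal Ngn3-low libraries. Alas2 had 0.372 and 1.45 CPM in ventral and 0.899 and 0.642 CPM in dorsal Ngn3-high libraries, against 0.583 and 0.771 CPM in ventral and 0.248 and 0.939 CPM in dorsal Ngn3-low libraries. Hba-x stayed under 0.1 CPM, and Hbb-bh1 had reads in 1 of the 8 E14.5 libraries.

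Among lists outside the members, endothelial, myeloid, mast cell and lymphoid, and epithelial markers mostly fell. Erythroid markers were mixed, and mesenchyme markers differed by side. Of all genes tested, 32.4% fell on the ventral and 32.1% on the dorsal side. Other endothelial markers fell in 18 of 21 on each side, among them Stab1 (2.3 ± 2.32 CPM in ventral Ngn3-high and 120.0 ± 54.2 CPM in ventral Ngn3-low libraries), Cd34 and Vwf, and 1 rose on each side. That gene was Dll4, with 111 ± 3.38 CPM in ventral Ngn3-high and 25.3 ± 7.75 CPM in ventral Ngn3-low libraries. Other myeloid markers fell in 17 of 18 on each side, among them Mrc1, Lcp1, Laptm5 and Coro1a. Of 14 other erythroid markers, Epb42, a red-cell membrane protein gene, rose on both sides (162 ± 20.2 CPM in ventral Ngn3-high and 4 ± 0.8 CPM in ventral Ngn3-low libraries), while Nfe2 and Ermap fell. Of 5 mast cell and lymphoid markers 4 fell on each side, led by Cpa3 and Il7r. Mesenchyme markers fell in 7 of 11 on the ventral and 2 of 11 on the dorsal side, and epithelial markers in 5 and 6 of 8, with Epcam at 342 ± 6.76 CPM in ventral Ngn3-high and 579 ± 38.4 CPM in ventral Ngn3-low libraries.

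Calls that hung on 1 library were few here. Without dorsal Ngn3-high library 1, Klf1, C1qb and C1qc were lost on the dorsal side (adjusted p 0.0503 to 0.0884), and without dorsal Ngn3-low library 2, Klf1 was lost (0.161). Without ventral Ngn3-high library 2, Gata1, C1qb, C1qc and Aif1 were lost on the ventral side (0.0536 to 0.0708), and without ventral Ngn3-high library 1, C1qb was lost (0.0515). In a fit of the 4 ventral libraries alone, Flt1, Pecam1, Cdh5, Tie1, Eng and Robo4 were lost (adjusted p 0.0518 to 0.0709).

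Set against E10.5 Pdx1+ libraries, E14.5 Ngn3-low libraries held more vessel RNA and almost none of the embryonic globins. Both sides were averaged in this comparison, which crosses stage, reporter and gate, so these cannot be told apart. Of the 31 members 20 rose and 5 fell, while of all genes 33.0% rose, 34.8% fell and 67.8% were called. All 12 endothelial members rose (median log2 fold change 4.67), led by Robo4 (5.85 with SE 0.78 and adjusted p = 0.000129), Cdh5 (5.27), Emcn (5.22) and Pecam1 (5.21). Kdr rose by 4.68 (SE 0.61, adjusted p = 0.00014) and Flt1 by 3.07. Egfl7 rose least, by 2.40. Both Pdx1+ ventral libraries overlapped Ngn3-low libraries in Flt1 and in no other endothelial member.

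All 4 globins and Alas2 fell. Hbb-y had 0.712 and 0.771 CPM in ventral and 0.0619 and 0.251 CPM in dorsal Ngn3-low libraries, against 251 and 166 CPM in ventral and 85.9 and 107 CPM in dorsal Pdx1+ libraries. Its log2 fold change was -8.66 with SE 0.36 and adjusted p = 4.05e-09. Hba-a1 fell by 2.51 on the log2 scale (adjusted p = 3.75e-06) and Alas2 by 3.16 (adjusted p = 1.18e-06). Hbb-bh1 and Hba-x also fell (adjusted p = 1.18e-10 and 1.03e-10), and no fold is given because several Ngn3-low libraries had no read of them. Klf1 and Gata1 rose by about 1 on the log2 scale (0.99 and 1.00, adjusted p = 0.0148 and 0.0211), while Epor did not pass. Klf1 and Gata1 thus went opposite to the 4 member globins, though the calls of both were lost with DESeq2.

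Of 11 immune members 6 rose and none fell (median log2 fold change 1.35). Ptprc rose most, by 3.51 (SE 0.66, adjusted p = 0.000976), followed by Lyz2 (2.87), Tyrobp (2.22), Cx3cr1 (2.07), Fcer1g (1.84) and Cd68 (1.02). C1qa, C1qb, C1qc, Csf1r and Aif1 did not pass, with log2 fold changes of 0.70 to 1.35. Of other lists, 20 of 21 endothelial, 17 of 18 myeloid and 4 of 5 mast cell and lymphoid markers rose, 3 of 8 megakaryocyte markers fell, and 7 of 7 cardiac muscle markers fell. Other erythroid markers rose in 7 of 14, among them the adult beta globin Hbb-bs, and Hba-a2 fell. Without dorsal Pdx1+ library 2, Tyrobp, Fcer1g, Cx3cr1, Klf1, Gata1 and Cd68 were lost (adjusted p 0.0517 to 0.125). Without dorsal Ngn3-low library 2, Klf1, Gata1 and Cd68 were lost (0.0718 to 0.153), and without dorsal Pdx1+ library 1 or ventral Pdx1+ library 2, Gata1 and Cd68 were (0.0664 to 0.141). Cd68 was also lost without dorsal or ventral Ngn3-low library 1 (0.117 and 0.166) and with RLE scaling (0.0535), and Klf1 and Gata1 with DESeq2 (0.0582 and 0.0894).

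Ins1+ cells at E17.5 held more RNA of all 3 lists than Ngn3-high cells at E14.5. Ins1+ cells are beta cells, which descend from Ngn3-high progenitors, and this comparison also crosses stage, reporter and gate. With both sides averaged, 26 members rose and 1 fell, while of all genes 32.0% rose, 29.9% fell and 61.8% were called. Endothelial members rose in 11 of 12 (median log2 fold change 2.97), erythroid in 4 of 8 (median 1.68) and immune in 11 of 11 (median 5.16). Gata1 fell (-2.31 with SE 0.53 and adjusted p = 0.00119), and Egfl7, Hbb-y, Hbb-bh1 and Klf1 did not pass. The median over all genes was 0.01.

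Immune members rose most. Lyz2 had 49.8 and 8.13 CPM in ventral and 31.8 and 7.9 CPM in dorsal Ins1+ libraries, against 0 and 0.0602 CPM in ventral and 0.204 and 0 CPM in dorsal Ngn3-high libraries, a log2 fold change of 8.26 with SE 1.27 and adjusted p = 0.000442. Csf1r had 67.8 and 13.7 CPM in ventral and 50.6 and 9.41 CPM in dorsal Ins1+ libraries (4.78 log2), and Cx3cr1 had 26.8 and 5.84 CPM in ventral and 24.1 and 7.68 CPM in dorsal Ins1+ libraries (5.33 log2). In these genes library 1 lay over 3-fold above library 2 on both sides. Tyrobp had 7.86 and 1.98 CPM in ventral and 8.18 and 2.16 CPM in dorsal Ins1+ libraries (6.61 log2), Fcer1g 8.24 and 5.11 CPM in ventral and 8.02 and 2.49 CPM in dorsal Ins1+ libraries (3.92 log2) and Ptprc 9.4 and 3.23 CPM in ventral and 10.7 and 1.73 CPM in dorsal Ins1+ libraries (5.16 log2). Aif1 had 3.47 and 1.04 CPM in ventral and 3.45 and 0.757 CPM in dorsal Ins1+ libraries (4.55 log2), and Cd68 had 14.6 and 9.69 CPM in ventral and 12.3 and 4.76 CPM in dorsal Ins1+ libraries (1.02 log2, adjusted p = 0.0497). Cd68 moved least of the list.

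C1qa again stood apart from its neighbours. It had 89.6 and 77.8 CPM in ventral and 71 and 59.9 CPM in dorsal Ins1+ libraries, against 8.18 and 6.99 CPM in ventral and 8.75 and 8.35 CPM in dorsal Ngn3-high libraries, a log2 fold change of 3.20 with SE 0.40 and adjusted p = 0.000104. C1qb had 38.2 and 8.55 CPM in ventral and 30.6 and 7.03 CPM in dorsal Ins1+ libraries (6.25 with SE 1.08 and adjusted p = 0.000913), and C1qc had 33.4 and 5.32 CPM in ventral and 23.9 and 6.06 CPM in dorsal Ins1+ libraries (5.87 log2). In Ins1+ libraries C1qa averaged 80.5 ± 8.04 RPKM on the ventral and 62.9 ± 7.51 RPKM on the dorsal side, C1qb 21.5 ± 19.3 and 17.3 ± 15.3 RPKM, and C1qc 16.1 ± 16.5 and 12.5 ± 10.487 RPKM (SD, n = 2 each). C1qa was thus the highest of the 3 per length there, while at E10.5 it stood at 15.6 ± 14.9 RPKM in ventral libraries beside 24.9 ± 20.4 RPKM for C1qb. C1qb and C1qc were over 3-fold higher in library 1 than in library 2 of each side, and C1qa was 1.15-fold higher on the ventral and 1.18-fold on the dorsal side.

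**Figure D5:**
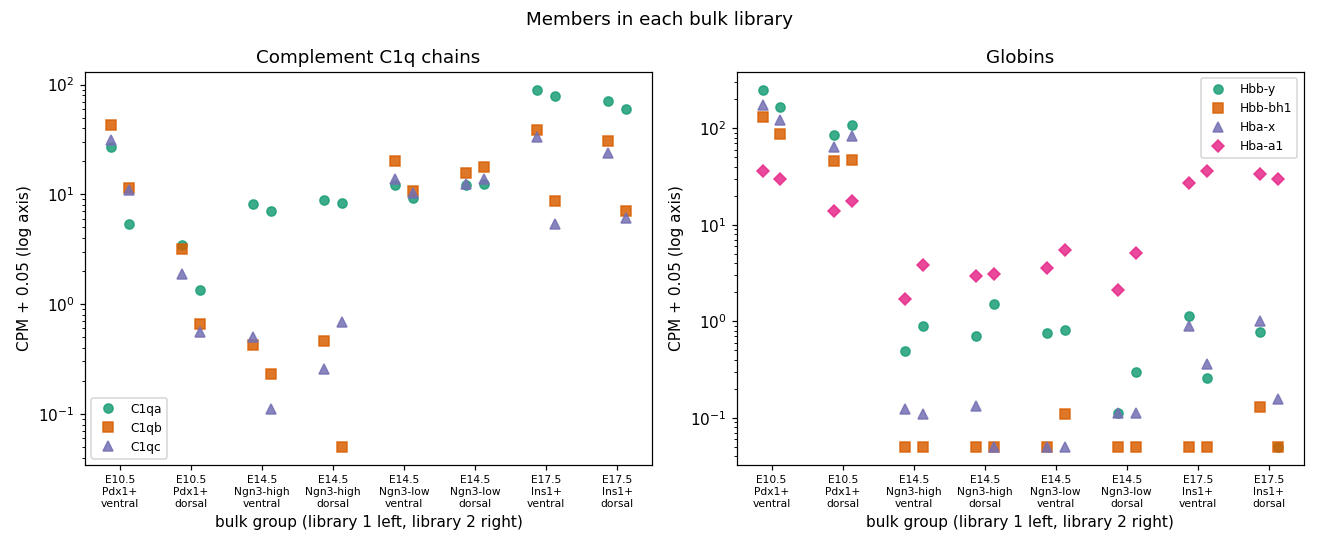
Levels of the 3 C1q genes and of globin genes in each of the 16 bulk libraries (CPM + 0.05, logarithmic axis) by group (x axis), with a point for each library and C1q genes at left, globins at right. C1qa stays at 6.99 CPM or more in the Ngn3-high libraries, where C1qb and C1qc lie under 1 CPM, and embryonic globins are high at E10.5 alone while Hba-a1 is high at both E10.5 and E17.5.

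The adult-type Hba-a1 rose in Ins1+ libraries, where the embryonic Hbb-y and Hba-x stood at about 1 CPM or less. Hba-a1 had 27.3 and 35.9 CPM in ventral and 33.8 and 29.5 CPM in dorsal Ins1+ libraries, against 1.64 and 3.79 CPM in ventral and 2.9 and 3.03 CPM in dorsal Ngn3-high libraries, a log2 fold change of 3.46 with SE 0.27 and adjusted p = 3.33e-07. Hbb-y stayed at 1.08 and 0.208 CPM in ventral and 0.722 and 0 CPM in dorsal Ins1+ libraries. The adult beta globin Hbb-bs, not a member, averaged 77.4 ± 12.2 CPM in ventral libraries and 72.9 ± 0.0618 CPM in dorsal Ins1+ libraries, and 2.28 ± 1.7 and 1.92 ± 0.161 CPM at E10.5. Alas2 had 3.31 and 3.96 CPM in ventral and 3.13 and 5.08 CPM in dorsal Ins1+ libraries (2.13 with SE 0.36 and adjusted p = 7.65e-05), Hba-x had 0.847 and 0.313 CPM in ventral and 0.962 and 0.108 CPM in dorsal Ins1+ libraries (3.12 log2) and Epor 1.23 and 0.521 CPM in ventral and 0.802 and 0.108 CPM in dorsal Ins1+ libraries (2.07 log2). Hba-x at 1 CPM or less was far from its E10.5 level of 174 and 123 CPM in ventral libraries. Klf1 had 0.77 and 0.417 CPM in ventral and 0.802 and 0.757 CPM in dorsal Ins1+ libraries, and Gata1 had 0.154 and 0.104 CPM in ventral and 0.321 and 0.108 CPM in dorsal Ins1+ libraries.

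Endothelial members rose from a low base and stayed below the Ngn3-low levels. Kdr had 18.3 and 8.23 CPM in ventral and 18 and 7.79 CPM in dorsal Ins1+ libraries (3.13 with SE 0.74 and adjusted p = 0.0057). Flt1 had 14 and 4.59 CPM in ventral and 10.6 and 5.52 CPM in dorsal Ins1+ libraries (3.89 log2), Cdh5 25.7 and 7.61 CPM in ventral and 23.3 and 8.87 CPM in dorsal Ins1+ libraries (3.02 log2) and Pecam1 20.8 and 9.38 CPM in ventral and 18.5 and 6.38 CPM in dorsal Ins1+ libraries (2.12 log2). Library 1 was the higher one in each of these 4 genes on both sides. Eng had 25.3 and 8.86 CPM in ventral and 23.6 and 8.87 CPM in dorsal Ins1+ libraries (3.70 log2), Plvap 14.2 and 4.79 CPM in ventral and 12.5 and 6.49 CPM in dorsal Ins1+ libraries (3.74 log2) and Emcn 5.01 and 0.938 CPM in ventral and 2.73 and 1.19 CPM in dorsal Ins1+ libraries (3.84 log2). Tek had 5.31 and 0.938 CPM in ventral and 2.65 and 1.41 CPM in dorsal Ins1+ libraries (2.60 log2), Tie1 11.9 and 3.44 CPM in ventral and 7.54 and 4.11 CPM in dorsal Ins1+ libraries (2.82 log2), Esam 8.78 and 4.17 CPM in ventral and 7.86 and 3.03 CPM in dorsal Ins1+ libraries (1.99 log2) and Robo4 6.47 and 1.67 CPM in ventral and 4.97 and 1.62 CPM in dorsal Ins1+ libraries (2.92 log2). Egfl7 had 8.7 and 4.27 CPM in ventral and 6.74 and 6.06 CPM in dorsal Ins1+ libraries, its log2 fold change of -0.73 with SE 0.33 and adjusted p = 0.0815 being the one below 0 in the list.

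Many of these calls needed library 1 of the Ins1+ groups. Without dorsal Ins1+ library 1, 17 members were called, and Pecam1, Cdh5, Tek, Tie1, Esam, Emcn, Robo4, Hba-x, Epor and Cd68 were lost (adjusted p 0.0510 to 0.372). Without ventral Ins1+ library 1 the same genes other than Epor were lost, 9 in all (0.0546 to 0.155). Without ventral Ngn3-high library 2, Pecam1, Tie1, Esam, Robo4 and Cd68 were lost (0.0549 to 0.149). Pecam1, Esam and Cd68 were lost without dorsal Ngn3-high library 1 (0.0532 to 0.0561), Pecam1 and Cd68 without dorsal Ngn3-high library 2 (0.0572 to 0.129), and Cd68 without ventral Ins1+ library 2 (0.0568). Of other lists, 16 of 21 endothelial markers rose, among them Lyve1, a marker of lymphatic and some vascular endothelium (128 ± 2.7 CPM in ventral libraries and 111 ± 5.03 CPM in dorsal Ins1+ libraries), and Dll4 fell. Of 18 other myeloid markers 16 rose, led by Mrc1, and Itgam fell. Mesenchyme markers rose in 10 of 11, led by Col3a1 and Col1a1. Of 8 megakaryocyte markers 4 rose, led by the platelet glycoprotein gene Gp9 (12.9 ± 0.666 CPM in ventral libraries and 13.5 ± 2.3 CPM in dorsal Ins1+ libraries).

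After E10.5 no member passed the test between sides. In Ngn3-high libraries 0 of 31 members were called (0.537% of all genes), and in edgeR 0 had an unadjusted p under 0.05, while DESeq2 called 0. In Ngn3-low libraries 0 were called (0.017% of all genes), in edgeR 1 member, Klf1, had an unadjusted p under 0.05, and DESeq2 called 0. In Ins1+ libraries 0 were called (0.0283% of all genes), 0 had an unadjusted p under 0.05 in edgeR, and DESeq2 called 0. These tests do not show that the sides were alike. Member sums had wide spreads, with endothelial sums of 786 ± 593 CPM in ventral and 816 ± 387 CPM in dorsal Ngn3-low libraries and 112 ± 74.7 and 100.2 ± 55 CPM in Ins1+ libraries (SD, n = 2 each). Klf1 had 3.69 and 4.09 CPM in ventral and 1.24 and 2.76 CPM in dorsal Ngn3-low libraries, which did not overlap.

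Levels differed between the 2 libraries of a group, by list and by gate. Of endothelial members that averaged at least 1 CPM, library 1 was higher than library 2 in 11 of 12 in ventral and 7 of 7 in dorsal Pdx1+ libraries (median ratios 2.20 and 1.96), the exception being Flt1 at 0.747. It was higher in 12 of 12 in ventral and dorsal Ngn3-low libraries (3.39 and 1.99) and in 12 of 12 in ventral and dorsal Ins1+ libraries (3.01 and 2.30). Immune members had ratios of 3.45 ventral and 2.63 dorsal at E10.5 and 3.97 ventral and 3.95 dorsal in Ins1+ libraries, but 1.33 ventral and 0.998 dorsal in Ngn3-low libraries. Erythroid members had median ratios of 1.31 ventral and 0.987 dorsal at E10.5 and were lower in library 1 in all 4 such members of both Ngn3-low groups, with median ratios of 0.844 ventral and 0.440 dorsal. Vessel and immune members were thus both higher in library 1 at E10.5 and E17.5, apart from ventral Flt1, while in dorsal Ngn3-low libraries the vessel members were higher, the red-cell members lower and the immune members mixed. The number of cells of each type in a library was not measured, so the source of this spread was not tested.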

How the data were processed

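Read counts per gene, as deposited by the authors, were used for 16 bulk libraries and 447 cells. Per the submitters' processing notes, reads were aligned to GRCm38 (mm10) with TopHat2 2.1.0 and Bowtie2 and counted with HTSeq 0.6.0. How strand and multi-mapping reads were handled is not given in the sources used here. Deposited RPKM of the authors were not used in any test, and RPKM printed here were computed from counts and the deposited gene lengths. The 31 members and all lists were chosen with earlier results of these data known.

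Counts were filtered (filterByExpr), scaled by TMM and tested with the quasi-likelihood F test of edgeR 4.0.16, adjusted by Benjamini-Hochberg over all genes that passed, 17690 in bulk and 17433 in sets, and called at an adjusted p under 0.05. Bulk libraries shared one fit, as did the 37 sets of 3 or more cells. The SE is taken from the test itself (log2 fold change over root F). Each cell was its own library, with no barcodes to share, and no doublet caller was run. Growth-protocol labels of human stem cells on 25 E9.5 ventral cells were disregarded. Every member is named, and other lists by counts and up to 4 called genes of highest mean CPM. As alternatives, results were recomputed with DESeq2 1.42.0, with RLE scaling, with no filter, with only the libraries compared, library number as a block, larger sets, other thresholds for cells and each library or set left out. The scripts were tested on simulated data. R 4.3.3 and Python 3.11.15 were used.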

Additional observations from a re-analysis of the deposited data

Results flagged for a closer look

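Of 24 groups of 4 to 10 sets examined for a sample far from the others, 6 stood out. Chance gives about 1 in 20 for values of normal spread, a rate that was not tested for counts near 0, and the 6 are not independent. Csf1r was at 38.7 CPM in set 3 of dorsal Pdx1-low cells, against 9.22 CPM in the next of 6 sets, and the summed immune members of that set, 179 reads of which 174 were of Csf1r, were at 39.8 CPM, against 12.1 CPM in the next. Csf1r was at 1.08 CPM in set 6 of ventral Pdx1-high cells, against 0.105 CPM in the next of 5 sets. Esam was at 0.407 CPM in set 2 of dorsal Pdx1-high cells and at 0.0421 CPM in set 6 of dorsal Pdx1-low cells, which were 2 reads and 1 read, with no read in the other sets of each group. Flt1 was at 0.185 CPM, 1 read, in set 2 of ventral Pdx1-high cells, with no read in the other 4 sets.

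The E15.5 liver cells entered no comparison. The highest Hba-a1 level among the 4 was 2782 CPM, and Hba-a1 reached 10 CPM in 2 of them.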

How the results depend on the processing

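No called member changed direction under any alternative run. Counts of called members moved by over 1.5 times in few comparisons. For E10.5 Pdx1+ libraries, ventral over dorsal, 10 members were called, against 28 with no filter, 17 with DESeq2, 17 with only the libraries compared and 27 with the library number as a replicate block. In Ngn3-high libraries, ventral over dorsal, 2 were called with no filter. In Pdx1+ sets, 1 was called with DESeq2 and 1 with sets of 5 or more cells.

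With 1 library or set left out, counts ranged from 2 to 13 at E10.5, 21 to 24 for ventral and 20 to 24 for dorsal Ngn3-high over Ngn3-low, 19 to 26 for Ngn3-low over Pdx1+, 17 to 27 for Ins1+ over Ngn3-high, 4 to 5 for Pdx1-low sets and 2 to 2 for ventral Pdx1-high over Pdx1-low sets. The other comparisons gave 0 each time.

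Library numbers are shared between groups of 2, and deviations of same-numbered libraries correlated across genes at 0.175 between ventral and dorsal E10.5 groups, 0.288 in Ngn3-low, 0.150 in Ngn3-high and 0.482 in Ins1+ libraries. What a number stands for is not given in the sources used here.

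Counts of cells depended on the threshold. The 27 cells with 3 or more endothelial members became 158 with 1 or more reads, 3 at 50 CPM, 129 with 2 or more members and 1 with 5 or more. The 4 erythroid cells became 21, 0, 10 and 2, and the immune count of 0 became 8 with 1 or more reads and 2 with 2 or more members.

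With 2 libraries a group and member levels of a few CPM, the E10.5 calls depend on how the spread between libraries is estimated: Kdr and Cdh5 had adjusted p = 0.338 and 0.36 without the block and 8.5e-06 and 0.000798 with it.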

Other observations

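Genes of lymphoid and mast cells, outside the member lists, were also measured in some gates. Cd79a, a gene of the B cell receptor complex, averaged 5.42 CPM in Ins1+ libraries of both sides and 0.130 CPM in Ngn3-high libraries, and rose there (log2 fold change 5.52 by edgeR, adjusted p = 6.89e-08). Cpa3, a mast cell protease gene, averaged 0.0459 CPM in dorsal Ngn3-high and 6.87 CPM in dorsal Ngn3-low libraries, and fell (log2 fold change -7.49 by edgeR). Ptprc, the pan-leukocyte member, rose in the first of these comparisons and fell in the other.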
